A study of Drosophila melanogaster with 3 samples.

Results

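The sites described here were 787 intronic peaks of a chromatin immunoprecipitation sequencing (ChIP-seq) experiment, 16.5% of the 4770 peaks in the authors' conservative list. A peak was taken when its summit lay inside an annotated gene but in no exon of any transcript, and more than 500 bp and at most 2000 bp from the nearest transcription start site (TSS) of any gene. The chromatin came from whole Drosophila melanogaster embryos, 0 to 24 h old, of a transgenic strain carrying the zinc finger protein CG11695 joined to eGFP, a green fluorescent tag that a GFP antibody pulled down. There were 3 biological replicates, each a separate biosample of this 1 strain and stage, and no second condition or treatment. The sources used here do not say which promoter drives the fusion or whether the native CG11695 gene was intact. Control DNA was not analysed, so sites recovered in any precipitation cannot be told apart from sites of the protein. Whole embryos mix all cell types and a day of development, so a weak site and a site used in few cells cannot be told apart either.

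Zinc finger proteins of the C2H2 kind bind DNA through fingers that each touch a few bases, and an array of fingers can read a long and directional sequence. CG11695 is known mainly from its sequence, and the labels do not describe its role in the embryo. Introns of Drosophila genes, first introns above all, are known to hold many enhancers as well as alternative promoters, and the stretch just downstream of a TSS is commonly open chromatin. The signal given below is the authors' own value per peak, on a scale that is not stated, and it serves here for ranks and descriptions inside 1 list. Where values of different replicates' lists stand side by side, they are as deposited unless stated otherwise, and their scales may differ. The own list of a replicate is the thresholded peak list made from that replicate alone.

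At about 3 in 10 of these peaks a short directional sequence stood to the side of the summit, more often than right at it. It is shown first because the clearest sequence pattern of these sites rests on it. The sequence was CACTGT or CAGTGT, read away from the summit, most often with its centre 80 to 100 bp from it. These are 5 of the 6 members of highest signal with such a match among members on 2L, 3L, 3R, 4 and X that overlapped a peak in all 3 own lists. Each line gives 150 bases of assembly dm6 (RefSeq copy), from 20 bp before the summit outwards, on the strand read away from the summit. Capitals mark CACTGT or CAGTGT.
CG11050, chr2L:6612578-6612727, minus strand: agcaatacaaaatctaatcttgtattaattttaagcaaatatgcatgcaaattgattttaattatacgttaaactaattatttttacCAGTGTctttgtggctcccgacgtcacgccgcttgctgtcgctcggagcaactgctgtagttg
Trl, chr3L:14759393-14759542, minus strand: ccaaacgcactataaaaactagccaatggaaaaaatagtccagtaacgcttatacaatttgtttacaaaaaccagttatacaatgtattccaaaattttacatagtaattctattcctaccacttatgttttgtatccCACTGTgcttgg
NFAT, chrX:13640492-13640641, plus strand: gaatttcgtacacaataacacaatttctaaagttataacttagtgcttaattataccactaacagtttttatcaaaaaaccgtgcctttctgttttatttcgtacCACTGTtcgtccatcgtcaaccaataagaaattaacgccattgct
for, chr2L:3655811-3655960, plus strand: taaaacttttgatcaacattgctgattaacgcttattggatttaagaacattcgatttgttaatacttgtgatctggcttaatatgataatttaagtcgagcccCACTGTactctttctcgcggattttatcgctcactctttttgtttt
norpA, chrX:4324963-4325112, plus strand: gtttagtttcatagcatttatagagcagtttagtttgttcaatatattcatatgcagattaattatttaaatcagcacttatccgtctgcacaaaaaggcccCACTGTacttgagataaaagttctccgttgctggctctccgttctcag

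The summits themselves lay in AT-rich sequence. The next lines give 100 bases of the plus strand around the summits of 5 of the 6 strongest members on the same arms and in all 3 own lists, chosen by signal alone. Capitals mark AAATAT or its reverse complement, a short sequence already known to be frequent at the summits of the whole list, which is present in a single window here. Base composition in these 5 windows ran from 67% to 78% A and T.
CG11050, chr2L:6612658-6612757, plus strand: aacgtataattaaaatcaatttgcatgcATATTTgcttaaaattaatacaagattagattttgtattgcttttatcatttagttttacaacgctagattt
Reph, chr2L:3804707-3804806, plus strand: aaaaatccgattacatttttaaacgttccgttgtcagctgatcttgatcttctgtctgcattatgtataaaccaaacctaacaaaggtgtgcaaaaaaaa
Trl, chr3L:14759473-14759572, plus strand: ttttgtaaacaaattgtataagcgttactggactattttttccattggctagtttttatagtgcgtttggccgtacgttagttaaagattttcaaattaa
CG32772, chrX:4910315-4910414, plus strand: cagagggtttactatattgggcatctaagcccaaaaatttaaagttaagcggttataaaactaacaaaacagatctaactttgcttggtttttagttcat
NFAT, chrX:13640463-13640562, plus strand: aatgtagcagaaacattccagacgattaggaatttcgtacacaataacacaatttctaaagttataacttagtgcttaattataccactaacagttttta

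The last set shows TATTTTAA, the searched sequence with the highest share at the summits of these peaks relative to their flanks. It is given in capitals, with its reverse complement, for 2 of the 3 members of highest signal on those arms and in all 3 own lists that held it.
Msp300, chr2L:5145703-5145802, plus strand: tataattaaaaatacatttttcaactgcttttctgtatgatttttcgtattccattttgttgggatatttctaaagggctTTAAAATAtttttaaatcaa
brat, chr2L:19165103-19165202, plus strand: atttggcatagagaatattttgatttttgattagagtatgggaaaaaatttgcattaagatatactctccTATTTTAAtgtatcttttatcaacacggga

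The directional pair CACTGT and CAGTGT was found 40 to 140 bp from the summit, reading outwards, at 240 of 787 members (30.5%). The share over the whole conservative list was 28.3%. Reading towards the summit in the same stretches, the pair was found at 94 members (11.9%). Of all windows that could be centred in the eligible intron sequence, meaning intron sequence at the same distance range from a TSS, 7.36% held it outwards and 7.32% inwards. The letters were searched on both strands, as CACTGT and CAGTGT read away from the summit on either side. They were picked after the sequences around these members had been seen, so the shares are descriptions, and no test of them is given. The letters of the 2 sequences differ at 1 position, and CACTGT is the reverse complement of ACAGTG, which was already known to be more frequent at summits of the whole list than in flanks. Within 50 bp of the summit and on either strand, ACAGTG stood at 71 members (9.02%). It stood at 4.07% of flanks, 3.90% of eligible windows and 7.13% of the whole list.

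Each member of the pair showed the same direction. CACTGT stood outwards at 150 members (19.1%) and inwards at 61 (7.75%), against 3.96% of eligible windows. CAGTGT stood outwards at 107 (13.6%) and inwards at 37 (4.70%), against 3.55% of eligible windows. The longer CCACTGT, which contains CACTGT, stood outwards at 88 members (11.2%) and inwards at 15 (1.91%), against 1.29% of eligible windows. TTTTTC, a tract without the CA and TG letters, was also directional, at 242 members (30.7%) outwards and 100 (12.7%) inwards, against 17.4% and 16.7% of eligible windows. Over the whole conservative list, the outward share was 15.6% for CACTGT and 14.2% for CAGTGT. It was 8.34% for the longer CCACTGT and 26.9% for the T tract. The members were thus lower than the whole list for CAGTGT and higher for the others. The T tract stood outwards at 32.0% of intronic peaks beyond 2000 bp, 32.0% of intergenic peaks and 21.4% of promoter peaks. The T tract was also counted just before the pair. Of 290 sides with an outward match of the pair, 24 (8.28%) had TTTTTC in the 30 bp towards the summit, and of 97 sides with an inward match 4 (4.12%) had it. Its share in 30 bp stretches of sides without the pair was not counted, so whether the 2 sequences go together was not tested.

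The share with an outward match depended on the distance from the summit. In steps of 20 bp, the share of members with an outward match was 2.03% within 20 bp of the summit, reached 9.66% at 80 to 100 bp and was 3.18% at 140 to 160 bp. The inward share stayed between 0.508% and 3.18% over all steps to 400 bp. In the sequences shown above the centre of the match stood 70 bp from the summit at CG11050, 85 bp at norpA, 87 bp at for, 88 bp at NFAT and 121 bp at Trl.

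**Figure D1:**
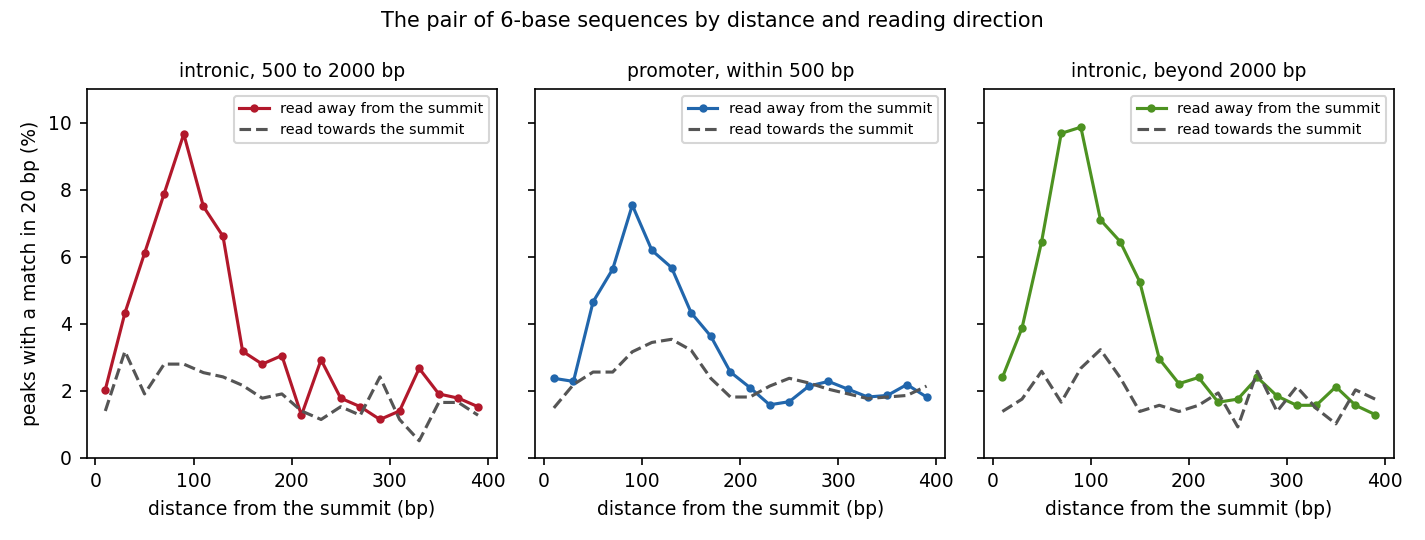
Share of peaks (%) with CACTGT or CAGTGT in each 20 bp step, by distance of the match from the summit (bp), for intronic peaks 500 to 2000 bp from a TSS, promoter peaks and intronic peaks beyond 2000 bp. Solid lines with points are matches read away from the summit and dashed lines matches read towards it. The outward share of the members reaches 9.66% at 80 to 100 bp, while the inward share stays at or below 3.18%.

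Most members with the pair held it on 1 side. It stood on 1 side of the summit at 190 members (24.1%) and on both sides at 50 (6.35%), while the inward reading stood on both sides at 3 members (0.381%). Of the 190 members with a single side, the letters read in the direction of the host gene's transcription at 108 (56.8%) and against it at 82 (43.2%). The share was 31.9% at the 508 members that lay downstream of the nearest TSS and 28.0% at the 279 that lay upstream of it.

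The outward share was higher among stronger members, and the inward share was not. In 5 classes of equal size from the highest to the lowest signal, the outward share was 44.3%, 37.6%, 26.1%, 25.5% and 19.0%. The inward share in the same order was 10.8%, 8.92%, 11.5%, 10.2% and 18.4%, so in the weakest class the 2 readings were nearly equal. These classes include 52 members (6.61% of all) that stood beside a stronger record of the list. The same letters can read outwards from a summit and inwards from its neighbour's. With neighbouring records merged, 735 members remained and 31.4% had the pair outwards. The inward share was not counted after merging, so its rise in the weakest class was not tested for this. Members that overlapped all 3 own lists had the pair outwards at 121 of 321 (37.7%), and members in no own list at 25 of 143 (17.5%). The 240 members with the pair had a median signal of 157, against 117 for the 547 without it. AAATAT near the summit was about as common in both groups, at 36.3% with the pair and 34.6% without it.

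The own lists, whose summits come from 1 library each, gave the same direction. Peaks of the 3 own lists overlapped 548, 463 and 424 of the members from whose sequences the letters were picked. The counts therefore read much of the same sequence again and are not independent support. Over the peaks of the same intronic class in each own list, the pair stood outwards at 31.9% ± 1.97 and inwards at 10.9% ± 1.74 (SD, n = 3). The promoter peaks of the own lists had 26.4% ± 0.543 outwards, so the members were 5.47 ± 1.46 points higher, and higher in each of the 3 replicates. Intronic peaks beyond 2000 bp had 33.9% ± 1.71 and intergenic peaks 34.7% ± 1.13, and there the members were lower by 2.00 ± 0.963 and 2.81 ± 0.851 points. Outward matches outnumbered inward ones in all 4 classes. By single sequence, in the own lists, CACTGT stood outwards at 20.7% ± 0.606 of the intronic class, against 15.2% ± 0.395 of promoter peaks, 19.4% ± 0.591 of intronic peaks beyond 2000 bp and 16.9% ± 1.39 of intergenic peaks. CAGTGT stood outwards at 13.3% ± 1.84 of the intronic class, against 12.6% ± 0.444 of promoter peaks, 16.5% ± 0.914 of intronic peaks beyond 2000 bp and 19.4% ± 1.76 of intergenic peaks.

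**Figure D2:**
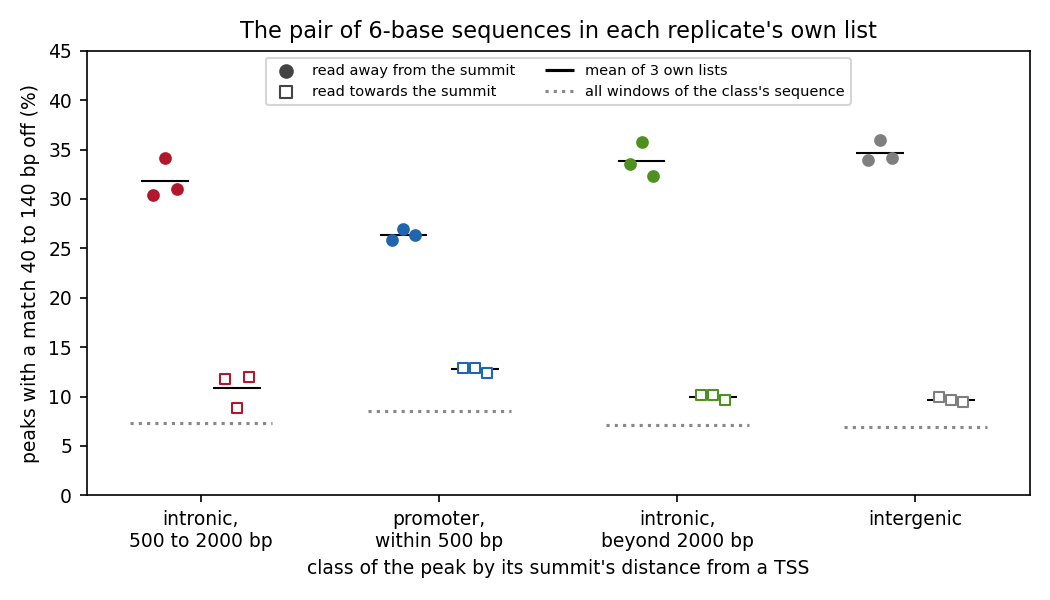
Share of peaks (%) with CACTGT or CAGTGT 40 to 140 bp from the summit in the own list of each replicate, by class of peak. Filled circles are outward and open squares inward matches, 1 point per replicate. Black bars are means over 3 replicates and dotted lines the share of all windows of the class's sequence. In the intronic class 500 to 2000 bp from a TSS the outward mean is 31.9%, the inward mean 10.9% and the dotted line 7.36%.

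Around the summit itself, the members formed AT-rich islands about 200 bp wide. A and T made up 68.6% of bases in the 20 bp at the summit's downstream side on the reference, 56.6% at 190 bp before it and 57.1% at 190 bp after it. Eligible intron sequence averaged 60.3%, so the island stood above it and its surroundings below it. Promoter peaks reached 65.7% and intronic peaks beyond 2000 bp 67.9%. In 200 bp windows the members averaged 34.8% GC, against 36.8% at promoter peaks, 35.5% at intronic peaks beyond 2000 bp and 39.7% over eligible windows. In the own lists the GC was 34.3% ± 0.430, against 35.0% ± 1.06 at promoter peaks and 34.7% ± 0.567 at intronic peaks beyond 2000 bp (SD, n = 3; exact sign-flip permutation p = 0.25 for each difference, two-sided, the smallest p that 3 replicates allow, so that no difference could pass a threshold of 0.05).

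**Figure D3:**
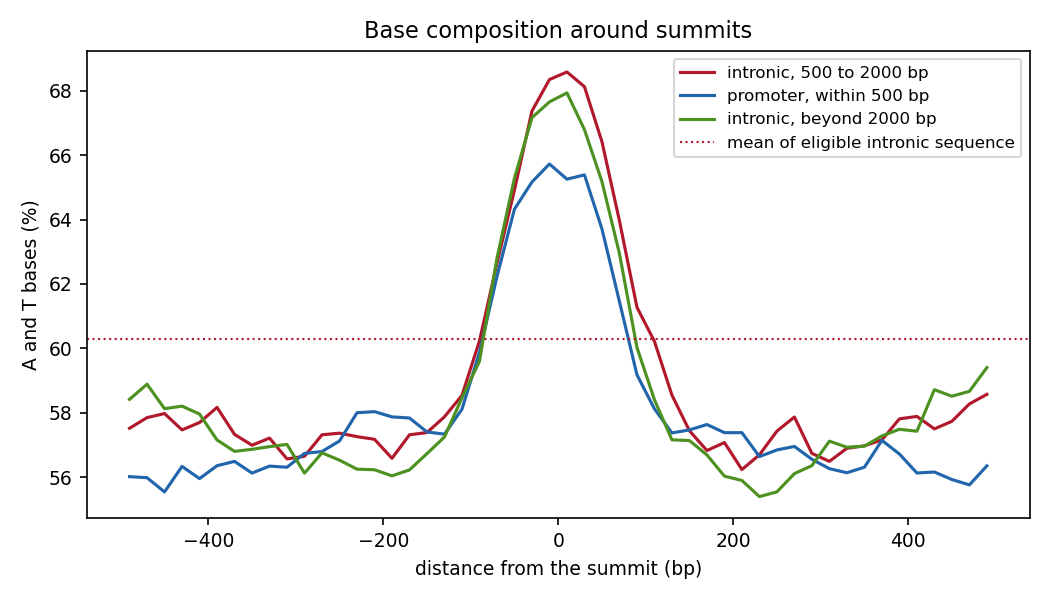
Percentage of A and T bases in 20 bp steps by distance from the summit (bp), for intronic peaks 500 to 2000 bp from a TSS, promoter peaks and intronic peaks beyond 2000 bp. The dotted line is the mean of the eligible intron sequence, 60.3%. The members peak at 68.6% and fall below the line on both sides.

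Several of the short AT-rich sequences searched were more common at the summits than in the flanks. A run of 8 A was not, at 8.77% of members, 8.89% of flanks and 8.81% of the whole list. AAATAT, searched with its reverse complement, stood within 50 bp of the summit at 276 members (35.1%), against 14.9% of flanks 300 to 400 bp away and 20.9% of eligible windows. The share over the whole conservative list was 34.2%, within 1 point of the members. The own lists gave 36.0% ± 1.33 (SD, n = 3), against 37.9% ± 2.04 at promoter peaks and 37.8% ± 1.25 at intronic peaks beyond 2000 bp. TATTTTAA, which shares letters with it in part, stood at 55 members (6.99%), 5.24 times its share in flanks (1.33%), against 2.38% of eligible windows, 6.05% of promoter peaks and 5.64% of the whole list. The TATA-like TATAAA stood at 24.1%, against 14.5% of eligible windows and 22.2% of the whole list. A homeodomain core, TAATTA, stood at 11.2%, against 6.61% of flanks, 8.25% of eligible windows and 10.8% of the whole list.

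Of the other sequences searched, TTTATTG stood at 5.97%, against 5.40% of flanks and 5.70% of the whole list. Those described next had lower shares at the summit than in the flanks. The repeat GTGTGTGT stood at 17 members (2.16%), against 4.89% of flanks and 1.66% of the whole list. GAGAG, the core read by GAGA factor, stood within 50 bp of the summit at 78 members (9.91%), against 17.7% of flanks and 11.1% of eligible windows. GAGCG stood at 57 (7.24%), against 17.9% of flanks and 9.69% of eligible windows. CAGGTAG, read by the early activator Zelda, stood at 2 members (0.254%), against 0.318% of flanks. TATCGATA, the DNA replication-related element of housekeeping promoters, stood at 1 member (0.127%), against 0.791% of promoter peaks and 0.205% of eligible windows. The E-box CACGTG stood at 1 member (0.127%), against 1.65% of flanks, and the E-box CAGCTG at 15 (1.91%), against 4.64%. Over the whole conservative list the shares were 10.9% for GAGAG, 9.66% for GAGCG, 0.356% for CAGGTAG and 0.461% for TATCGATA. They were 0.650% for CACGTG and 2.77% for CAGCTG. The GAGAG share of the members was thus within about 1 point of that of the whole list. All of these were counted on both strands, and GAGAG and GAGCG can overlap each other in letters.

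The strongest member (2L, 6612454 to 6612921) had its summit in a short intron of CG11050, 1020 bp downstream of the gene's nearest TSS. It was the second strongest peak of the whole conservative list. Its pooled signal was 2065, and the signals in the separate lists of replicates 1, 2 and 3 were 892, 633 and 535. All 3 own lists placed it at rank 2. Over the gene's transcripts, the lowest intron number at the summit was 2 and the shortest intron there was 140 bp long. The peak was 468 bp wide, so it ran past an intron of that length. A promoter peak with a signal of 113 stood at the same TSS, so the intronic peak was far above it.

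Among the 20 strongest, Trl, which encodes GAGA factor, held the third strongest (3L, 14759330 to 14759700, signal 1432) in its second intron, 1527 bp downstream of a TSS. Its signals were 570, 508 and 355 in replicates 1, 2 and 3, all in the top 20 of the own lists, and its 200 bp window had 25% GC. The HMG-box protein genes HmgD and HmgZ, which overlap, shared a member with a signal of 1293 (2R, 21703186 to 21703641), and its signals in the replicates were 466, 405 and 415. NFAT, a transcription factor gene of the NFAT family, held a member of signal 926 (X, 13640349 to 13640673) in its first intron, with 389, 313 and 236 in the replicates. Adf1, which encodes a Myb-related transcription factor, held one of 864 (2R, 6662909 to 6663214), with 319, 335 and 223. CHES-1-like, a forkhead factor gene, held one of 687 (X, 7706840 to 7707142), with 288, 217 and 197. In each of these the 3 replicates lay within a factor of 2 of each other, and replicate 1 was highest in all but Adf1. The values were not scaled between lists, so this order cannot be told apart from a difference in scale.

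Among the rest of the top 20, Reph, named as a regulator of eph expression, held the second strongest member (2L, 3804563 to 3804959, signal 1540) upstream of one of its own TSSs, with 572, 520 and 444 in the replicates. Btk, a Tec-family tyrosine kinase gene, held one of 1243, with 432, 431 and 368, and the nearest TSS there was that of a tRNA gene, 1899 bp away. The cyclic GMP-dependent kinase gene for held one of 737 (2L, 3655698 to 3655972), with 283, 226 and 211. In norpA, the phospholipase C gene of phototransduction, the member had 710 (X, 4324851 to 4325123), with 311, 221 and 178. Msp300, a giant nuclear envelope protein gene of muscle, held one of 741 (2L, 5145594 to 5145909) in its intron 12, with 301, 209 and 226 and 21% GC. The others named here were at CG32772, at the overlapping genes Hyls1 and chif, and at CG4496, CG9837, CG9663 (with 2 records), CG3726 and CG31635, with pooled signals from 635 to 1224. The 2 records at CG9663 overlapped the same peak in each own list and may be 1 site.

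**Figure D4:**
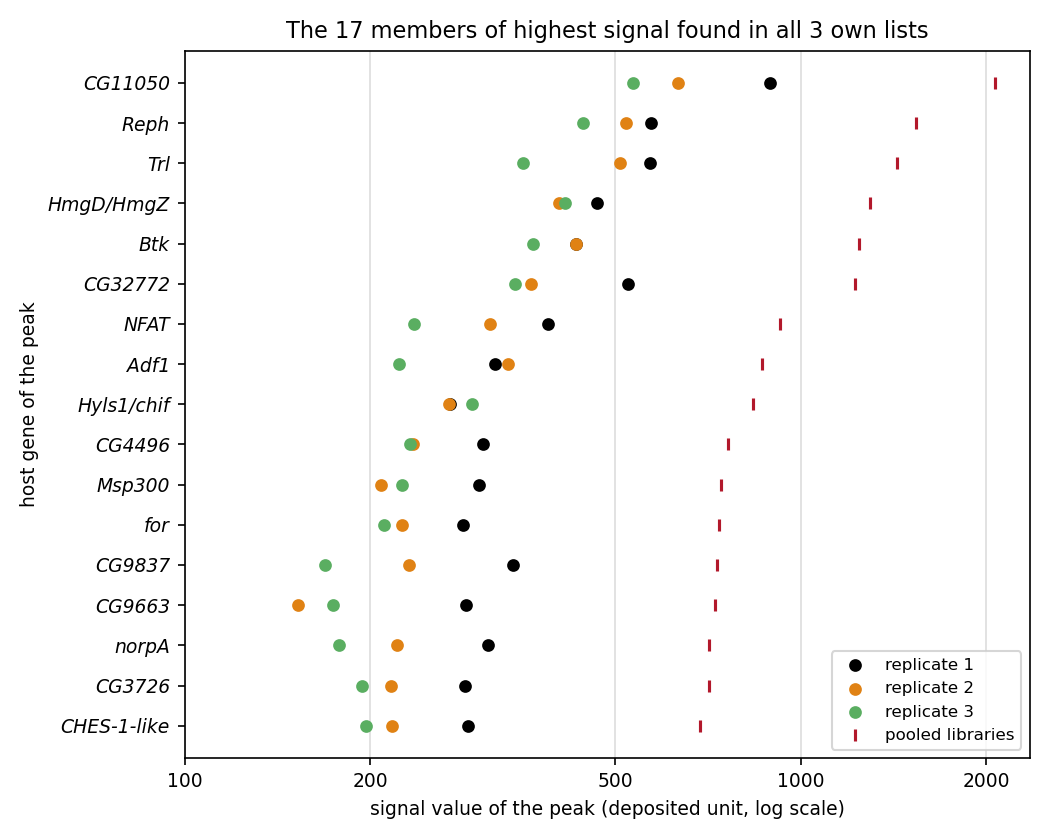
Signal value of each peak (deposited unit, log scale) in replicates 1, 2 and 3 and in the pooled libraries, for the 17 members of highest signal that overlapped a peak in all 3 own lists, 1 row per member with its host gene. The pooled value of the top member, at CG11050, is 2065. Pooled and single-library values come from different lists. They share 1 axis in the drawing, but their scales may differ, so the gap between them carries no result.

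The conservative list kept peaks that replicates 1 and 3 ranked alike, so the likeness of the replicates below was in part fixed by that choice. Signals could be read from all 3 replicates' ranked lists for 756 members. Across these, the log2 signals of replicates 1 and 2, 1 and 3, and 2 and 3 correlated with Pearson's r of 0.837, 0.853 and 0.812 and Spearman's rho of 0.809, 0.753 and 0.767. No p is given. Replicate 1 was higher than replicate 2 at 77.4% and higher than replicate 3 at 79.0% of them. The median log2 ratio of replicate 1 was 0.346 over replicate 2 and 0.395 over replicate 3. These values were not scaled, so they describe the lists as a whole and not single sites. After each replicate was centred on its median, the median SD over the replicates was 0.29 on the log2 scale, and 0.15 for the 20 strongest members.

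Of the members, 321 (40.8%) overlapped a peak in all 3 own lists. The share over the whole list was 36.8%, and it was 39.5% for promoter peaks, 33.4% for intronic peaks beyond 2000 bp and 29.7% for intergenic peaks. A further 149 members were in 2 own lists, 174 in 1 and 143 (18.2%) in none. The own lists of replicates 1, 2 and 3 held 548, 463 and 424 members, or 60.8% ± 8.06 (SD, n = 3). Replicate 1 alone accounted for 98 of the 174 found in a single own list, against 39 and 37 for the others. The repeated members were the strong ones: from the highest to the lowest class of signal, 96.2%, 75.2%, 19.1%, 3.82% and 9.49% were in all 3 own lists. The weakest class also had the highest GC, 38.6%, against 32.8% in the strongest. A record beside a stronger one can overlap its neighbour's peak in an own list, and 52 members stood beside a stronger record. With neighbouring records merged, 41.2% of 735 members were in all 3 own lists and their GC averaged 34.5%. The classes were not counted again after merging, so how far these records shape the weakest class was not tested.

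The density of intronic peaks was lower further from the TSS across the range of the members. There were 68.9 members per Mb of eligible intron sequence, against 119 peaks per Mb within 500 bp of a TSS, 26.2 per Mb in introns beyond 2000 bp and 16.6 per Mb between genes. In steps of 250 bp from 500 to 2000 bp, the density was 91.4, 80.6, 61.4, 61.8, 54.0 and 53.6 per Mb. The next steps beyond 2000 bp had 38.9, 40.9 and 43.7 per Mb. The own lists gave 66.5 ± 7.54 per Mb at 500 to 750 bp and 33.8 ± 6.09 per Mb at 1750 to 2000 bp (SD, n = 3). Eligible sequence in which reads cannot be placed was not separated.

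**Figure D5:**
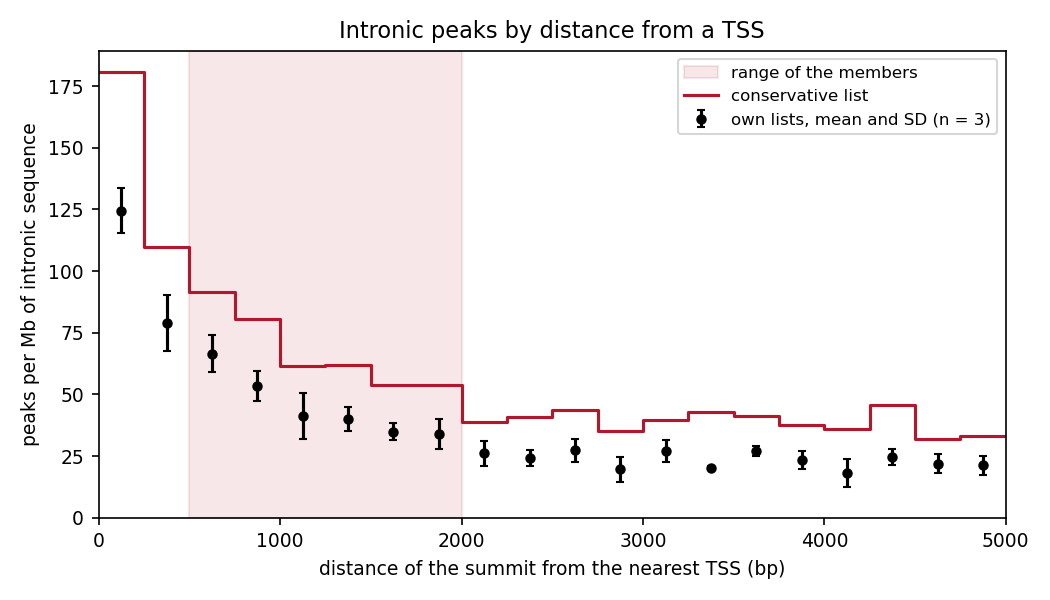
Intronic peaks per Mb of intronic sequence in 250 bp steps of distance from the nearest TSS (bp). The red line is the conservative list, the points are the mean and SD of the 3 own lists, and the shaded band is the range of the members. The density is 91.4 per Mb at 500 to 750 bp and 53.6 per Mb at 1750 to 2000 bp.

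No gap in distance set the members apart at either bound. Just inside the lower bound stood members at CG5854 (501 bp, signal 199), SREBP (502 bp, signal 156) and a long non-coding RNA gene (505 bp, signal 166), and just outside it intronic peaks at qtc (498 bp, signal 225), CG31612 (497 bp, signal 520) and CG10383 (497 bp, signal 127). Just inside the upper bound stood shot (1990 bp, signal 102), RhoGAP18B (1989 bp, signal 168) and CG3764 (1984 bp, signal 308), and just outside it Mmp2 (2003 bp, signal 194), snu (2004 bp, signal 123) and Mob2 (2004 bp, signal 96.9).

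Most members lay in first introns. At least 1 transcript placed the summit in its first intron for 649 members (82.5%), while 64.5% of the eligible sequence was in first introns. Intronic peaks beyond 2000 bp were in a first intron at 59.9%, and 37.6% of their sequence was. In the own lists the shares were 83.8% ± 0.546 for the intronic class 500 to 2000 bp from a TSS and 62.4% ± 0.652 beyond it (SD, n = 3), a difference of 21.4 ± 0.367 points (exact sign-flip permutation p = 0.25, two-sided, the smallest possible). The classes are set by distance from a TSS, and their sequence differs in the same direction, 64.5% against 37.6%. The test therefore cannot separate a property of the peaks from that of the sequence. The members' first-intron share depended on the transcripts counted, with 54.9% when only the longest transcript of each gene was used. The remaining members were in a second intron (91) or a later one (47). The introns were long, with a median of 4270 bp and quartiles of 1858 and 10538 bp.

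By position, 473 members (60.1%) lay downstream of a TSS of their own host gene and 201 (25.5%) upstream of one, which places these between alternative start sites of that gene. The nearest TSS belonged to another gene at the other 113, with 78 upstream and 35 downstream of it. The median signals of the 4 groups were close, at 122, 127, 121 and 117. At 192 members (24.4%) a promoter peak stood at the nearest TSS, against 22.2% of intronic peaks beyond 2000 bp and 19.4% of intergenic peaks. Where both were present, the member was the stronger of the pair at 105 of 192 (54.7%), against 41.1% and 42.7%, and the median log2 ratio of the member over the promoter peak was 0.15.

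The members spread over the arms with a modest slope. X had 80.9 members per Mb of eligible sequence, 3L 72.0, 3R 69.7, 2R 63.8 and 2L 60.4. Chromosome 4, most of which is heterochromatin-like, held 1 member, or 7.78 per Mb. Repeat-masked bases made up 22.1% of the 200 bp windows, against 18.3% of eligible sequence, and 4 members (0.508%) had an annotated transposon insertion within the window, against 2.68% of eligible bases.

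Among protein-coding genes, 630 of the 9005 with eligible intron sequence held a member (7%). Of these, 132 held 2 or more, and 105 did once neighbouring records were merged. CG1677 held the most, 8, with signals from 70.4 to 542. CHES-1-like and NFAT held 6 each, and after merging 5 each. Genes with much intron sequence have more room for a member, so each list below that held a member is given also by its members per Mb of its own eligible sequence, against 70.0 per Mb over all protein-coding genes. All of these densities count every record, before neighbouring records were merged. In a short list a merged record can move the density to the other side of 70.0. A gene counts here when it hosts a member, even where the nearest TSS is that of another gene. Among the genes named below this was so at brm, br, drk, fra, kirre, Antp and EcR, with others not listed. No list was tested.

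Polycomb and trithorax group genes, which keep developmental genes silent or active, held members at 4 of 26 genes, or 187 per Mb. Beside Trl, ph-p, a Polycomb complex gene, had a signal of 319 (114, 103 and 98.0 in the replicates), and brm, the ATPase gene of a SWI/SNF remodeller, had 163 (72.7, 59.5 and 37.1). All 3 genes had a member in every own list. The fourth gene, the remodeller gene kis, chosen outside the naming rule after its values were seen, held 3 members with signals from 85.6 to 116. Insulator and architectural protein genes held members at 1 of 12 (332 per Mb), again Trl, which stands in both lists. Cytoplasmic ribosomal protein genes held none at 27 genes and ZAD zinc finger genes none at 14, but their eligible sequence was only 5.34 and 4.59 kb.

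In the BMP and activin list, 3 of 13 genes held members, or 197 per Mb. They were the type II receptor gene wit (signal 254, with 116, 79.5 and 72.3 in the replicates), the transcription factor gene Mad (4 members, the strongest 185) and the type I receptor gene tkv (120). Mad held 3 members after merging. In the EGFR, FGF and receptor tyrosine kinase list 6 of 23 genes held members, or 116 per Mb, led by the adaptor gene drk (308), the insulin receptor gene InR (302) and the FGF ligand gene ths (293), each in all 3 own lists. The Notch list had 2 of 11 (49.4 per Mb), with neur, the E3 ligase gene that acts on Notch ligands, at 414 (148, 111 and 154) and the Notch inhibitor gene numb at 77.2 and in no own list. In the Wnt and Hedgehog list 4 of 20 genes held members, led by the kinase gene sgg, with the co-receptor gene arr at 90.4, and none was in all 3 own lists. The JAK/STAT and ecdysone list had 6 of 19, led by Stat92E at 196, the zinc finger gene br at 192 and the ecdysone receptor gene EcR at 135. The insulin and metabolic hormone list had 4 of 16 (114.5 per Mb), led by ImpL2, which encodes a secreted insulin-binding protein, at 418 (158, 159 and 101). Read by density, the Wnt and Hedgehog list stood at 86.4 per Mb and the JAK/STAT and ecdysone list at 91.1 per Mb, against 70.0 for all genes. Of the JAK/STAT and ecdysone records, EcR and Eip75B held 2 each, and 1 each after merging. Eip75B is named for this reason, outside the naming rule. The density of this list after merging was not counted, so it may not stay above 70.0.

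Among patterning genes of the early embryo, none of 20 segmentation genes held a member, in 18.7 kb of eligible sequence. Hox genes had members at 2 of 8, or 92.8 per Mb. Antp had a member of signal 141 (52.7, 33.9 and 54.3) and Abd-B 2 members, the stronger at 111, and none of these was in all 3 own lists. Abd-B held 1 member after neighbouring records were merged. Dorsoventral genes had members at 2 of 16, or 37.6 per Mb. The GATA cofactor gene ush had 215, in all 3 own lists, and the T-box gene Doc1 80.4, in 1.

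Cytoskeleton and RNA-binding genes held members at more of their genes than most lists. The small GTPase and cytoskeleton list had members at 6 of 19 genes, or 156 per Mb, and all 6 genes had a member in every own list. They were led by tsr, which encodes cofilin, at 450 (184, 124 and 146), by Moe, the ezrin-radixin-moesin gene, at 406 (155, 135 and 106), and by the guanine nucleotide exchange factor gene trio at 219 (74.3, 75.8 and 57.2). RNA-binding and splicing regulator genes had members at 9 of 22, led by mub at 484, ps at 267 and the translational repressor gene pum at 249. Their 201 kb of eligible sequence held 69.8 members per Mb, against 70.0 for all genes.

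The lists of tissue genes ranged widely in density. Glial and septate junction genes had members at 3 of 15 genes and 268 per Mb, with Mcr, a complement-like septate junction protein gene, at 256 (103, 69.8 and 94.4), the ETS factor gene pnt at 165 and the RGS gene loco at 107. Both pnt and loco held 4 members, and after merging pnt held 3 and loco 4. Neural transcription factor genes had 4 of 24 and 53.1 per Mb, led by zfh1 at 380 (185, 101 and 98.4). Axon guidance and adhesion genes had 3 of 29 and 26.2 per Mb, led by the netrin receptor gene fra at 336 (105, 99.9 and 134), and muscle genes 3 of 26 and 33.0 per Mb, led by the myoblast fusion gene kirre at 359 (140, 121 and 103). Synapse and channel genes had 1 of 24 and 51.3 per Mb, dlg1, with 5 members, or 4 after merging. Germ line and piRNA genes had 3 of 20 and 136 per Mb, led by gcl at 201. Cell cycle genes had 2 of 20 and 122 per Mb, with the cyclin E gene CycE at 144. The CycE member stood beside a stronger promoter peak with a signal of 274 and was not left as a member once neighbouring records were merged. These values mix all tissues of the embryo, and which cells they came from was not tested.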

How the data were processed

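The deposited files hold peaks on dm6, as the labels state. The authors made the lists with the irreproducible discovery rate (IDR), a measure of how alike 2 replicates rank a peak. Each deposited peak carries a signal value of unstated scale and a score scaled from the global IDR (830 or more in the thresholded lists, a global IDR of 0.01 or less), and the deposited ranked lists add −log10 of the global IDR. No source used here names the aligner or peak caller, and read depth is unknown, so no counting interval is given. By matching coordinates, the conservative list compared the ranks of replicates 1 and 3 on peaks of pooled libraries.

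Peaks were kept on 6 chromosome arms with 1 record per summit, and coordinates are 1-based. Classes came from Ensembl BDGP6.54 (release 115), read with Python 3.11.15, pandas 2.3.3 and numpy 2.4.6. The annotation's 5896 transposon insertions were not counted as genes. Sequence came from the RefSeq copy of dm6. A member was in an own list when it overlapped a peak of it by 1 bp or more. Eligible sequence was every base that could have held a summit of the class. Short sequences (14 sets of letters) were searched on both strands up to 50 bp from summits, with flanks 300 to 400 bp away, and the outward pair at 40 to 140 bp. Classes were compared over the 3 replicates with an exact sign-flip permutation test, two-sided. The classification and the search for AAATAT were tested on simulated data. Figures were drawn with matplotlib 3.10.9.

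Named genes were the hosts of the 20 strongest members in all 3 own lists, up to 3 genes of each of 22 lists by highest signal, the 3 genes with most members and the 3 peaks nearest each bound on each side. A gene that this rule names and some of the sequences are not reported here. The members and lists were chosen with earlier results of these data known, and the outward pair after the sequences around the members had been seen. The labels give the 3 replicates as separate biosamples of 1 strain and do not say whether they were separate collections, so p-values measure the spread between these samples.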

Additional observations from a re-analysis of the deposited data

How the results depend on the processing

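Depth is unknown, so the weakest members and the absence of others cannot be weighed by counts. No paired analysis was possible because all 3 replicates form 1 group. Leaving a replicate out means leaving it out of the IDR comparison alone, since the peaks themselves came from pooled libraries, and the main list already compared replicates 1 and 3 alone. The count of 787 members was 455 at a global IDR of 0.001 and 407 with a lower bound of 1000 bp, and 712 to 824 without a replicate. The share in all 3 own lists (40.8%) was 32.6% in the pooled list, 69.5% at a global IDR of 0.001 and 27.4% with 50% reciprocal overlap, and 39.2% to 44.5% without a replicate. The GC was 34.2% at a global IDR of 0.001, 32.3% in windows of 100 bp and 38.5% in windows of 400 bp. AAATAT stood at 33.0% to 34.1% without a replicate, 37.4% at a global IDR of 0.001, 36.6% with the bound of 1000 bp and 51.1% with 100 bp on each side. The first-intron share was 81.2% to 82.3% without a replicate, 84.2% at a global IDR of 0.001, 80.8% with the bound of 1000 bp, 54.9% with the longest transcript and 80.9% with transposon insertions counted as genes. The median signal was 107 in the pooled list, 121 to 134 without a replicate, 188 at a global IDR of 0.001, 128 with neighbouring records merged and 119 with the bound of 1000 bp. The stricter settings leave fewer peaks by construction, and the cause of these shifts was not tested otherwise. The outward pair stood at 28.6% to 36.0% of members under the 8 alternatives run for it, which were chosen after seeing the data, as was counting transposon insertions as genes.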
